A study of Mus musculus with 6 samples.

Results

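The genes described here handle fatty acids and stored lipid: the fatty acid binding proteins Fabp3, Fabp4 and Fabp5, the nuclear receptors Pparg and Ppard, the lipases Lpl and Lipa, the lipid droplet protein Plin2, and the esterifying enzymes Soat1 and Dgat1. They were chosen by gene symbol, with earlier results of these data known, and 8 of the 10 matched a named feature among 25206 features on each array. Fabp3 and Soat1 had no feature with that name and were not analysed here. The array may still hold them, since 2021 of its features carry no gene symbol. Peritoneal macrophages of 3 mice with the genotype Tet2-/- were compared with those of 3 wildtype littermates, all on the C57BL/6J background. Tet2 encodes an enzyme that oxidises 5-methylcytosine in DNA. The cells had been drawn into the abdominal cavity by an injection of 1 mL of 4% thioglycollate broth, an irritant, and were collected on day 4 and plated in medium with serum. Every culture of both genotypes was then stimulated for 10 h with lipopolysaccharide, a bacterial cell wall component, at 10 ng/mL, together with interferon gamma at 2 ng/mL. No culture without this stimulus was part of the series, so each value describes activated macrophages. The sources used here give no ages and do not say which part of Tet2 was deleted or in which cells of the mice.

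Fatty acid binding proteins are small cytosolic carriers that move fatty acids to membranes, enzymes and nuclear receptors. The peroxisome proliferator-activated receptors, or PPARs, bind fatty acids and their derivatives, pair with a retinoid X receptor on DNA and raise the transcription of genes for lipid uptake, storage and oxidation. In macrophages this system takes up lipoprotein lipid, frees fatty acids and cholesterol in the lysosome, and stores the excess as esters in droplets, which fill the foam cells of atherosclerotic plaques. Fabp4 is best known from fat cells, but macrophages also make it, and it is a textbook target of Pparg.

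Values are log2 expression levels from the RMA method, which corrects background, equalises the distributions of the arrays and summarises probes. Median log2 levels of the arrays lay between 3.47 and 3.66. Changes are given as Tet2-/- minus wildtype on the log2 scale with the standard error of a limma fit over all features (n = 3 per genotype), and p-values are Benjamini-Hochberg adjusted over all 25206 features. The Tet2 feature was at 5.55, 5.25 and 5.75 on the Tet2-/- arrays and at 5.40, 5.07 and 5.10 on the wildtype arrays. It was thus not lower in the arrays labelled Tet2-/- (log2 change 0.32 ± 0.16, limma adjusted p = 0.365). The sources used here do not place its probes relative to the deletion, so it checks nothing, and every direction rests on the sample labels. Macrophage markers were read as a check of the labelled cell type. Log2 levels were 10.04 to 10.31 for Adgre1, which encodes the macrophage surface protein F4/80. They were 10.63 to 10.73 for the lysosomal protein Cd68 and 9.14 to 9.89 for the growth factor receptor Csf1r. These levels were far above the array medians, but Emr4, another listed macrophage marker, lay below the median on every array. Csf1r differed by 0.58 ± 0.11 between genotypes (limma adjusted p = 0.0543). Log2 changes of the 8 measured macrophage markers ran from -0.51 to 0.97. The lysozyme gene Lyz2 had no named feature and was not analysed here.

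Fabp4 fell in the Tet2-/- macrophages, and it was the only one of the 8 measured lipid genes past an adjusted p of 0.05. Across the whole array 0.952% of features passed in either direction, 0.647% higher and 0.305% lower. The genes were chosen with earlier results known, so these shares do not test the count. The level was 2.13-fold higher in wildtype macrophages (95% interval 1.75 to 2.60). For the other 7 genes, the second carrier Fabp5, the receptors Pparg and Ppard, the lipases Lpl and Lipa, the droplet coat gene Plin2 and the triglyceride enzyme Dgat1, adjusted p-values ran from 0.179 to 0.886. Their log2 changes lay between -0.41 and 0.38. Of the 8 genes 2 had a positive sign, beside 10607 of all 25206 features. Groups did not overlap for 2 of the 8, Fabp4 and Ppard, where 22.0% of all features had such groups. The median log2 change of the 8 was -0.09, beside -0.04 over all features.

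**Figure D1:**
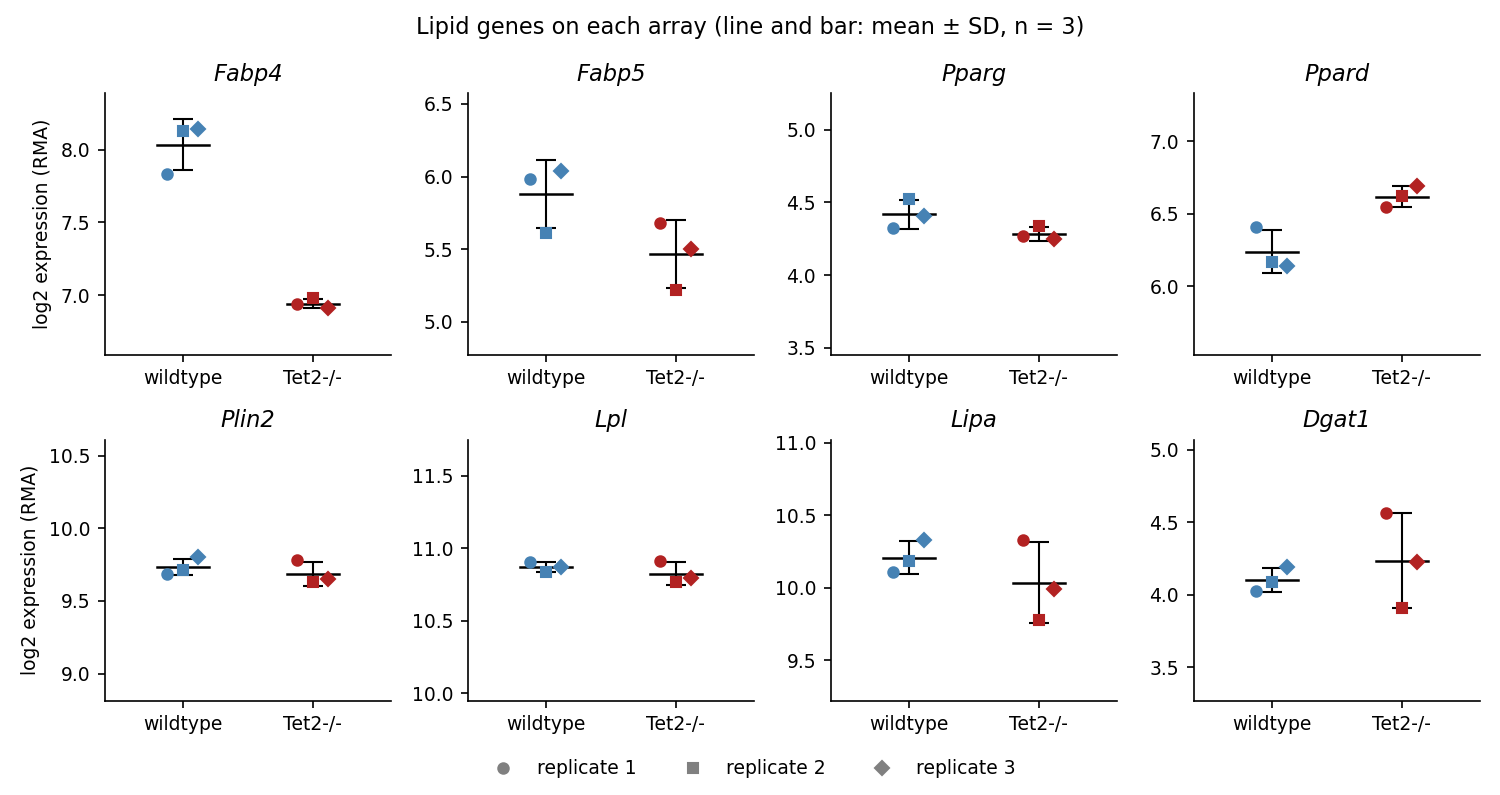
Log2 expression (RMA) of the 8 measured lipid genes on each array, wildtype in blue and Tet2-/- in red. Symbols mark replicates, and lines and bars give the mean ± SD (n = 3). Every panel spans the same range of log2 units around the gene's own level. The 3 Tet2-/- values of Fabp4, between 6.91 and 6.98, sit below its wildtype values of 7.83 to 8.15. In the panels of Lpl and Plin2 the groups lie on top of each other.

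Fabp4 encodes the adipocyte fatty acid binding protein, also called aP2. Its log2 level was 6.94, 6.98 and 6.91 in Tet2-/- replicates 1, 2 and 3 and 7.83, 8.13 and 8.15 in wildtype replicates 1, 2 and 3. The Tet2-/- arrays were close together (SD 0.033) and all lay below the wildtype arrays (SD 0.18). The log2 change was -1.09 ± 0.13 (limma adjusted p = 0.0102), the 24th smallest p among all features. Only 0.206% of features were lower by at least 1 on the log2 scale. Leaving out each array in turn kept the log2 change between -1.20 and -1.04, but the adjusted p rose above the threshold without Tet2-/- replicate 1 (0.0539), Tet2-/- replicate 3 (0.0668) or wildtype replicate 3 (0.0580). In those 3 fits only 27, 11 and 25 of all features passed, against 240 with every array.

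Fabp5 encodes the epidermal fatty acid binding protein, which macrophages carry beside Fabp4. The log2 level was 5.68, 5.22 and 5.50 in Tet2-/- replicates 1, 2 and 3 and 5.98, 5.61 and 6.04 in the wildtype replicates. The lowest wildtype array, replicate 2, lay under the highest Tet2-/- array, so the groups overlapped. The log2 change of -0.41 ± 0.16 had an interval from -0.78 to -0.04 and did not pass after adjustment (limma adjusted p = 0.262). Its unadjusted p was 0.0332, and 16.0% of all features had an unadjusted p under 0.05. In both genotypes replicate 2 was the lowest of the 3 arrays. A fall as large as that of Fabp4 lay outside the interval of Fabp5.

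Among the listed intracellular lipid carriers that were measured, only Fabp4 passed the threshold. Of 14 listed fatty acid and retinoid carriers 12 were measured, of which 0 rose, 1 fell (Fabp4) and 11 did not pass. Across all features 0.952% passed. The median log2 change of the list was -0.01. The brain-type protein Fabp7 was at 8.68, 9.04 and 8.93 on the Tet2-/- arrays and at 8.49, 8.11 and 8.34 on the wildtype arrays. Its groups did not overlap, with higher levels in Tet2-/-, an order that 9.74% of all features shared. The log2 change of Fabp7 was 0.57 ± 0.15 (limma adjusted p = 0.106). The intestinal Fabp2 (0.19 ± 0.14, adjusted p = 0.571) and the retinoic acid carrier Crabp2 (0.24 ± 0.16, adjusted p = 0.536) were below or near the array medians.

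Fabp4 and Fabp5 lie in a cluster of related genes on chromosome 3 in the RefSeq annotation (GRCm38.p6), with Pmp2 and Fabp9 between them and Fabp12 on the far side of Fabp4. All of the 10 nearest protein-coding neighbours of Fabp4, 5 on each side, were measured. Among them 0 passed the limma threshold, which 0.952% of all features passed, and the log2 changes ran from -0.45 to 0.25. An unadjusted p under 0.05 was found for 2 of the 10, Fabp5 and Slc10a5, and for 16.0% of all features. Slc10a5 had the largest change of the 10 (-0.45 ± 0.15, limma adjusted p = 0.190), with all Tet2-/- arrays below all wildtype arrays. Pag1 had all Tet2-/- arrays above all wildtype arrays (0.25 ± 0.13, limma adjusted p = 0.377). Among all features 12.2% had such separate groups with lower and 9.74% with higher levels in Tet2-/-. Pmp2, Fabp9, Fabp12 and Slc10a5 were below the array median on all 6 arrays, where a change can be understated. With so small a share of features called, 0 calls among 10 genes says nothing particular about this region.

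**Figure D2:**
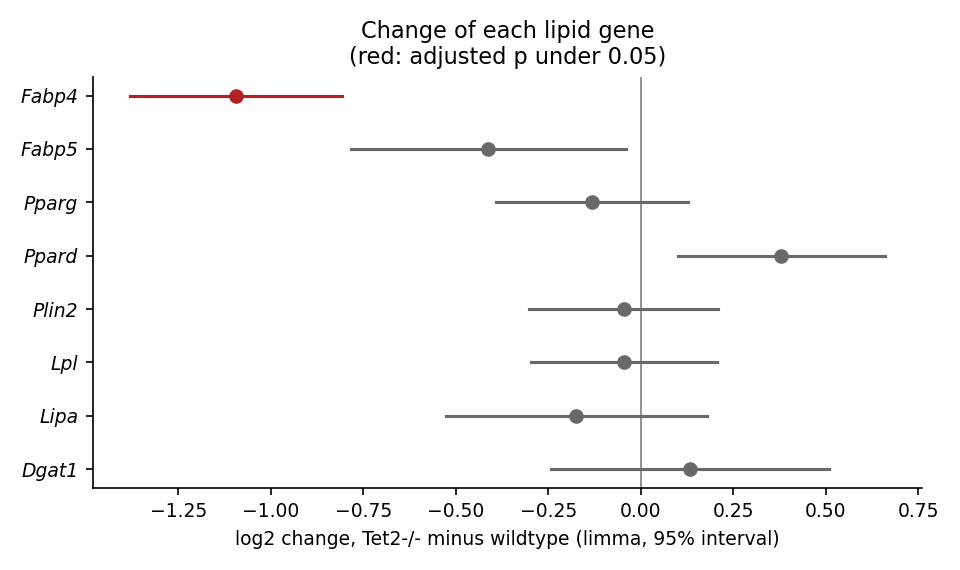
Log2 change (Tet2-/- minus wildtype) of each measured lipid gene with its 95% interval from limma (n = 3 per genotype). Red marks an adjusted p under 0.05. Fabp4 at -1.09 stands apart from the other 7 genes, whose changes lie between -0.41 and 0.38.

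Marker genes of other cell types were read in the same arrays, and bulk RNA cannot tell fewer cells of a type from less RNA per cell. Of 11 measured markers of resident peritoneal macrophages, the long-lived macrophages of the cavity, 5 rose, 0 fell and 6 did not pass, where 0.647% of all features rose. Groups did not overlap for 7 of the 11 with higher and for 1 with lower levels in Tet2-/-, beside 9.74% and 12.2% of all features. Their summed linear level was 3484 to 5319 on the Tet2-/- arrays and 1781 to 2392 on the wildtype arrays. For monocyte markers 0 of 5 passed, and the sums were 281 to 421 against 207 to 231. For general macrophage markers 2 of 8 rose, with sums of 8053 to 8418 against 6467 to 6691. The part of these shifts in the level of Fabp4 was not tested. Fat cells are the best known source of Fabp4, and whether any contributed to its level was not tested. Of 8 measured adipocyte markers 0 passed, beside 0.952% of all features. Their summed level was 59.9 to 70.7 on the Tet2-/- arrays and 63.2 to 71.6 on the wildtype arrays. Of these 8 markers 6 lay below the array median on every array, among them the fat hormone gene Adipoq (1.86 to 2.21) and the droplet gene Cidec (2.56 to 3.01). The fat cell droplet coat gene Plin1 was at 3.49 to 4.03. Among fibroblast markers 0 of 7 passed, and 6 of the 7 had a positive change, beside 10607 of all 25206 features. The median log2 change of these markers was 0.54. Their summed level was 149 to 473 on the Tet2-/- arrays, highest in replicate 2, and 126 to 184 on the wildtype arrays. Of the markers of neutrophils, eosinophils, mast cells, T cells, B cells, mesothelium, endothelium and striated muscle 0 passed. All 5 measured T cell markers had a negative change, 4 of them below the median on every array. Of 6 endothelial markers 4 had a positive and 2 a negative change. Their mean log2 level was 4.33 to 4.47 on Tet2-/- and 4.19 to 4.31 on wildtype arrays.

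The receptors themselves did not pass. Pparg, the PPAR of fat cells and of alternatively activated macrophages, was at 4.27, 4.34 and 4.25 in Tet2-/- replicates 1, 2 and 3. In wildtype replicates 1, 2 and 3 it was at 4.32, 4.52 and 4.41, so that the groups overlapped by a narrow margin. The log2 change was -0.13 ± 0.12, with an interval from -0.39 to 0.13 (limma adjusted p = 0.633). Its level exceeded that of 62.6% to 65.2% of features on each array. The residual SD of Pparg, 0.079, was at the 7.92nd percentile of all features.

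Ppard, a widely expressed PPAR that drives fatty acid oxidation, pointed the other way. Its log2 level was 6.54, 6.62 and 6.69 on the Tet2-/- arrays and 6.41, 6.17 and 6.14 on the wildtype arrays. All Tet2-/- arrays were above all wildtype arrays, with the smallest gap to wildtype replicate 1, an order that 9.74% of all features shared. The log2 change was 0.38 ± 0.12 with an interval from 0.10 to 0.66, and the limma adjusted p was 0.179 (unadjusted 0.0130). It did not pass under any of 14 other settings, where the adjusted p ran from 0.0864 to 0.403.

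Of 17 PPARs, retinoid X receptors and co-regulators 15 were measured, and 0 passed in either direction, beside 0.952% of all features. The median log2 change was 0.00. Groups did not overlap for 6 of them, 5 higher and 1 lower in Tet2-/-, beside 9.74% higher and 12.2% lower among all features. The PPAR partner Rxra was at 6.43, 6.43 and 6.51 in Tet2-/- and at 6.22, 6.00 and 6.08 in wildtype macrophages (0.36 ± 0.12, limma adjusted p = 0.176). The nuclear receptor co-repressor Nrip1 differed by 0.46 ± 0.12 on the log2 scale (adjusted p = 0.107). Cebpa, a transcription factor that acts beside Pparg in fat cell differentiation, had -0.34 ± 0.11 (adjusted p = 0.183).

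PPARs bind DNA at repeats of the hexamer AGGTCA, so the start sites of the lipid genes were searched for it on both strands. RefSeq promoter windows (GRCm38.p6) of 300 bases, 250 before and 50 after the start, were at hand for 6 of the 10 genes, in 8 windows: Fabp3, Ppard, Plin2, Lipa and Soat1 with 1 each and Pparg with 3. Fabp4, Fabp5, Lpl and Dgat1 had no entry. The hexamer occurred in 3 of the 8 windows and in 16.3% of all 32851 windows of this length. The full repeat with 1 base between, AGGTCANAGGTCA, was in 0 of the 8 and in 0.0396% of all. Only these windows were searched, not the rest of each gene. The 3 matches are shown because they are the only ones in the 8 windows. They lie at the first and second Pparg start and at Plin2, a listed PPAR target. Each is printed along the strand of its gene with the hexamer, or its reverse complement TGACCT, in capitals.
Pparg, first start, chr6:115361096-115361141, plus strand: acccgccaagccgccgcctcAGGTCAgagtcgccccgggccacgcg
Pparg, second start, chr6:115362320-115362365, plus strand: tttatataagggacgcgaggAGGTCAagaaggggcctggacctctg
Plin2, chr4:86670252-86670297, minus strand: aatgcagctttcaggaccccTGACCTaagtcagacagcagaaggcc
The match at the first Pparg start begins 28 bases before the start site, that at the second 9 bases before it, and that of Plin2 218 bases before it. A match is a run of letters and not a measured binding site. Neither gene with a match, Pparg or Plin2, changed past the threshold.

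Known PPAR targets were read as a list, drawn up with earlier results of these data known. Of 32 listed targets 25 were measured: 1 rose, Olr1, 1 fell, Fabp4, and 23 did not pass. Across all features 0.647% rose and 0.305% fell. The median log2 change of the listed targets was -0.01. Groups did not overlap for 3 of the 25 with higher and for 5 with lower levels in Tet2-/-, beside 9.74% and 12.2% of all features. Olr1, the receptor LOX-1 that takes up oxidised low-density lipoprotein, was at 9.96, 10.07 and 10.17 on the Tet2-/- arrays and at 8.79, 8.30 and 8.27 on the wildtype arrays. It rose by 1.62 ± 0.16 (limma adjusted p = 0.00624) and lost its call without Tet2-/- replicate 3 (0.0521). The scavenger receptor Cd36, which imports fatty acids and is induced by Pparg, differed by -0.23 ± 0.12 (adjusted p = 0.385). Cpt1a, which admits fatty acids to the mitochondrion, had 0.39 ± 0.13 (adjusted p = 0.179), and the dehydrogenase Acadl had -0.35 ± 0.11 (adjusted p = 0.177). The called targets moved in opposite directions, and whether PPAR activity differed between genotypes was not tested.

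**Figure D3:**
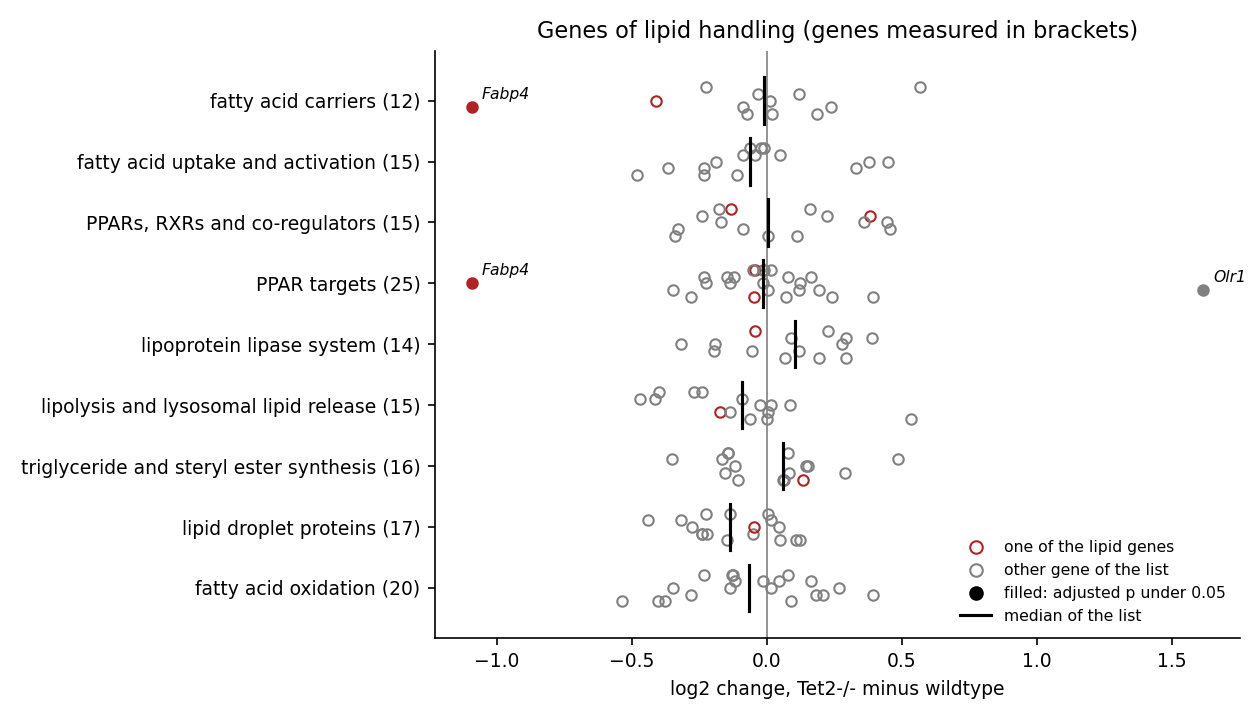
Log2 change (Tet2-/- minus wildtype) of each measured gene on 9 lists of lipid handling, a gene standing on every list that holds it. Red circles are the lipid genes described here, filled circles have a limma adjusted p under 0.05, and black lines are list medians. Fabp4 on the left and Olr1 on the right are the only filled circles, and the list medians lie between -0.14 and 0.10.

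Lpl encodes lipoprotein lipase, the secreted enzyme that frees fatty acids from triglyceride-rich lipoproteins. Its log2 level was 10.91, 10.77 and 10.79 in Tet2-/- replicates 1, 2 and 3 and 10.90, 10.83 and 10.87 in the wildtype replicates. The 6 arrays differed by little, and the groups overlapped. Its level exceeded that of 99.6% of features on each array, and its residual SD of 0.060 was at the 3.38th percentile of all features. The log2 change was -0.05 ± 0.11 (limma adjusted p = 0.886) with an interval from -0.30 to 0.21, so a change of Lpl as large as that of Fabp4 lay outside the interval.

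Among 17 genes of the lipoprotein lipase system 14 were measured and 0 passed, beside 0.952% of all features. Groups did not overlap for 2 of the 14 with higher and for 1 with lower levels in Tet2-/-, beside 9.74% and 12.2% of all features. The median log2 change was 0.10, with 9 above 0 and 5 below, where 10607 of all 25206 features were above 0. The lipase maturation genes Lmf1 (0.29 ± 0.15, limma adjusted p = 0.388) and Sel1l (0.28 ± 0.13, adjusted p = 0.328) and the lipase activator Apoc2 (0.39 ± 0.15, adjusted p = 0.249) had the smallest p beside Lpl. Apoc2 was at 7.05, 7.03 and 6.59 in Tet2-/- and at 6.37, 6.55 and 6.57 in wildtype macrophages, so the groups did not overlap but nearly met. Of all features 9.74% had separate groups with higher levels in Tet2-/-.

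Lipa encodes lysosomal acid lipase, which hydrolyses the cholesteryl esters and triglycerides of engulfed lipoproteins. Levels were 10.33, 9.78 and 9.99 on the Tet2-/- arrays and 10.11, 10.18 and 10.33 on the wildtype arrays. Tet2-/- replicate 1 matched the highest wildtype array while Tet2-/- replicate 2 was the lowest of all. The log2 change was -0.17 ± 0.16 with an interval from -0.53 to 0.18 (limma adjusted p = 0.647). With an SD of 0.28 the Tet2-/- group of Lipa was more spread than its wildtype group (SD 0.11).

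On the list of lipolysis and lysosomal lipid release 15 of 15 genes were measured and 0 passed, beside 0.952% of all features. Groups did not overlap for 1 of the 15 with higher and for 3 with lower levels in Tet2-/-, where 9.74% and 12.2% of all features had such groups. Its median log2 change was -0.09. Npc1, which exports cholesterol from the lysosome, was at 8.89, 8.55 and 8.65 in Tet2-/- and at 8.35, 8.09 and 8.06 in wildtype macrophages (0.53 ± 0.14, limma adjusted p = 0.107). The monoglyceride lipase Mgll was at -0.41 ± 0.16 on the log2 change scale (adjusted p = 0.251), and Pnpla3, of the droplet lipase family, was at -0.47 ± 0.16 (adjusted p = 0.191).

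Plin2 encodes perilipin 2, the coat protein of lipid droplets in macrophages. Its log2 level was 9.78, 9.63 and 9.65 in Tet2-/- replicates 1, 2 and 3 and 9.69, 9.72 and 9.80 in the wildtype replicates. The groups overlapped, and the change was -0.05 ± 0.11 (limma adjusted p = 0.886; interval -0.30 to 0.21). Plin2 was thus among the tightest features, with a residual SD at the 5.84th percentile. The signs of Plin2 and Lpl turned when arrays were centred on their medians, to 0.02 each. Of 17 lipid droplet proteins, all measured, 0 passed, beside 0.952% of all features. Changes were above 0 for 6 and below 0 for 11, with a median of -0.14. Over all 25206 features 10607 were above 0 and 14599 below. Plin3, a second droplet coat protein, was at 7.13, 6.70 and 6.75 in Tet2-/- and at 7.35, 7.27 and 7.28 in wildtype macrophages (-0.44 ± 0.14, adjusted p = 0.171). Its groups did not overlap. Such groups were found for 4 of the 17 with lower and for 0 with higher levels in Tet2-/-, beside 12.2% and 9.74% of all features. Cideb (-0.28 ± 0.13, adjusted p = 0.330) and Hsd17b11 (-0.32 ± 0.16, adjusted p = 0.368), which encode other droplet-associated proteins, had the next smallest p.

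Dgat1 encodes an acyltransferase of the last step of triglyceride synthesis. Its level was 4.57, 3.91 and 4.23 on the Tet2-/- arrays and 4.03, 4.09 and 4.19 on the wildtype arrays. The Tet2-/- arrays enclosed the wildtype arrays on both sides, with SDs of 0.33 and 0.084. The log2 change was 0.13 ± 0.17 (interval -0.24 to 0.51, limma adjusted p = 0.760), and it was -0.03 without Tet2-/- replicate 1. Of 18 genes of triglyceride and steryl ester synthesis 16 were measured and 0 passed, beside 0.952% of all features. The median log2 change of the list was 0.06. Groups did not overlap for 2 of the 16 with higher and for 1 with lower levels in Tet2-/-, beside 9.74% and 12.2% of all features. Agpat4, which adds an acyl chain to lysophosphatidic acid, was at 6.62, 6.87 and 6.66 in Tet2-/- and at 6.30, 6.25 and 6.14 in wildtype macrophages (0.49 ± 0.12, limma adjusted p = 0.0999). Its relative Agpat2 had 0.29 ± 0.13 (adjusted p = 0.340), and Gpat2, below the array median on all 6 arrays, had -0.35 ± 0.16 (adjusted p = 0.324).

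The lists of genes that supply or burn fatty acids held no call either, where 0.952% of all features passed. At that share, lists of this length mostly hold no call. Of 16 genes of fatty acid uptake and activation 15 were measured and 0 passed (median -0.06). Groups did not overlap for 2 of the 15 with higher and for 2 with lower levels in Tet2-/-, beside 9.74% and 12.2% of all features. Acsl4, which activates polyunsaturated fatty acids, was at 8.39 to 8.52 on the 3 Tet2-/- arrays and at 7.93 to 8.06 on the 3 wildtype arrays (0.45 ± 0.11, limma adjusted p = 0.0999). The fatty acid transport protein Slc27a4 had 0.38 ± 0.16 (adjusted p = 0.279), and Slc27a2, below the array median on all 6 arrays, had -0.48 ± 0.16 (adjusted p = 0.183). Of 23 genes of fatty acid oxidation 20 were measured and 0 passed (median -0.07). Groups did not overlap for 9 of these 20, 6 lower and 3 higher in Tet2-/-, where 12.2% of all features had such groups with lower and 9.74% with higher levels. Among the lower ones were the peroxisomal thiolase Acaa1a (-0.54 ± 0.16, adjusted p = 0.146) and the electron transfer flavoprotein subunit Etfb (-0.40 ± 0.13, adjusted p = 0.175).

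Fabp4 was also set against each of the other 7 lipid genes on the same array, a difference that is free of any shift shared by the genes of an array. The log2 difference between Fabp4 and Fabp5 was 1.26, 1.76 and 1.41 in Tet2-/- replicates 1, 2 and 3 and 1.85, 2.52 and 2.11 in the wildtype replicates. It was lower by 0.68 in Tet2-/- macrophages (log2 change of the difference -0.68), and the groups were 0.087 apart. This was the narrowest gap of the 7. Against Ppard the change of the difference was -1.47, with 0.39, 0.35 and 0.22 in Tet2-/- and 1.42, 1.96 and 2.00 in wildtype macrophages. Against the steady genes Plin2 and Lpl it was -1.05 each. For all 7 pairs the groups did not overlap and the two-sided exact permutation p was 0.1 (0.1 after adjustment over the 7 pairs). This is the smallest p that 3 arrays against 3 can give, so no pair could pass 0.05. All 7 differences hold the same Fabp4 values, whose own groups were already apart. The 7 pairs are therefore not separate results and add no evidence on Fabp4.

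**Figure D4:**
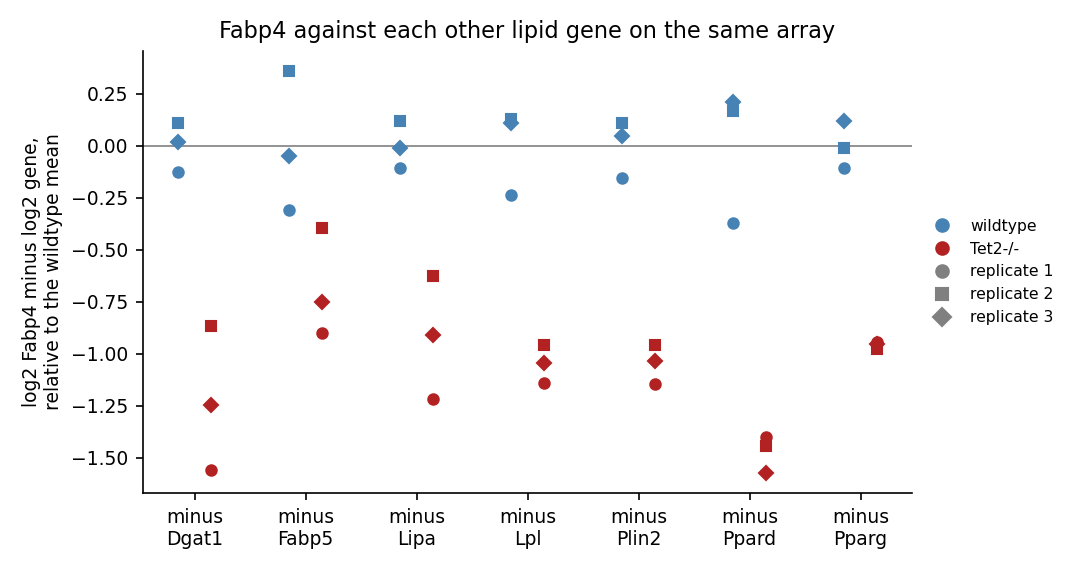
Log2 level of Fabp4 minus that of each other lipid gene on the same array, shown relative to the wildtype mean of that difference (blue, wildtype; red, Tet2-/-; symbols mark replicates). In all 7 comparisons, which share the same Fabp4 values, every red point lies below every blue point, most narrowly for Fabp5.

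Across the other settings of normalization, filtering and fitting, Fabp4 had a log2 change of -1.03 or lower and a limma adjusted p of 0.00133 to 0.0225 in the 8 alternatives that used every array. The adjusted p was 0.00954 to 0.0668 in the 6 that left out 1 array. None of the other 7 genes passed under any of these 14 alternatives.

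**Figure D5:**
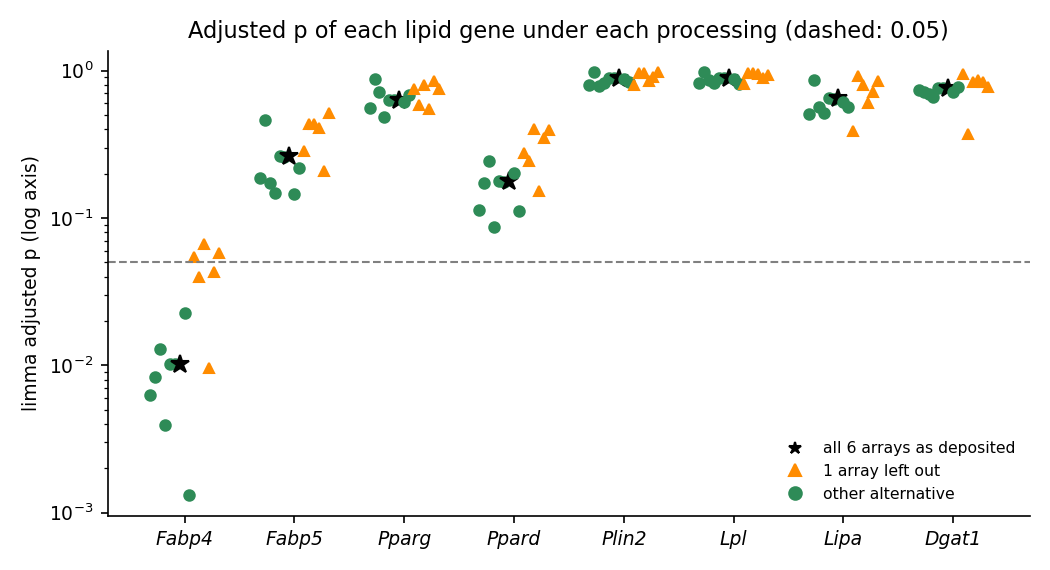
Limma adjusted p (log axis) of each measured lipid gene with all 6 arrays as deposited (star), with 1 array left out (triangles) and under the other alternatives (circles). The dashed line is 0.05. Only Fabp4 has points below the line, and 3 of its triangles, at 0.0539, 0.0580 and 0.0668, lie above it.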

How the data were processed

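Total RNA of 6 macrophage cultures, 3 per genotype, was hybridised to 1 Affymetrix array each, for whole-transcript profiling per the labels. The deposited values are log2 expression made by the authors with RMA and affy 1.36.1, per the submitters' processing notes; the sources used here name no array model, probe definition or genome build. They were used as deposited, and RMA hides a change shared by all genes. In every pair of arrays at least 99.7% of features differed. Per the labels, samples within a genotype are biological replicates. Arrays have no depth; their number limits how precise the values are. The platform annotation gave 1 gene symbol for 23185 features, several for 0 and none for 2021.

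The fit was lmFit and eBayes of limma 3.58.1 (R 4.3.3), two-sided, over all features, with no low-level filter, a threshold of 0.05 and 5.31 prior degrees of freedom. In simulated data with 25206 features it called 68% of genes changed by 1 and 96% of those changed by 2 on the log2 scale. Of 237 listed genes 215 were measured (1 through a synonym). Named were the lipid genes, Tet2, Adgre1, Cd68, Csf1r, Lyz2, Adipoq, Plin1, Cidec and, per pathway list, 3 other genes with the smallest p; Cd36 and the neighbours of Fabp4 were added after values were seen. The genes and lists were chosen with earlier results of these data known. List counts carry no set test. Alternatives were median centring, cyclic loess, a level filter, a replicate block, a trended robust prior, array weights, each array left out, a threshold of 0.1, averaged features and symbol-bearing features only.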

Additional observations from a re-analysis of the deposited data

How the results depend on the processing

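Fabp4 kept its direction under all 14 alternatives and its call under all but 3, each without 1 array: its log2 change was -1.20 to -1.04 over the 6 fits that left out an array. The number of lipid genes past the threshold was 1 with each alternative that kept all arrays and 0 to 1 when an array was left out. The number of all features past it was 240, and became 791 at an adjusted p of 0.1, 498 with array weights, 846 with only features above the median level, 814 with a trended and robust prior and 11 to 155 when 1 array was left out. Of the features past it, those higher in Tet2-/- made up 67.9% as deposited, 78.8% with arrays centred on their medians and 59.6% with cyclic loess. Among genes whose change was close to 0, signs turned for Lpl (0.0202) and Plin2 (0.0194) with centred arrays, for Plin1 with centred arrays (0.0155) and cyclic loess (0.0088), for Cd68 with array weights (-0.0017) and cyclic loess (-0.0107), and for Cidec with array weights (-0.0215). Leaving out 1 array gave -0.0335 to 0.29 for Dgat1, -0.0283 to 0.0209 for Cd68, -0.0194 to 0.16 for Adipoq, -0.16 to 0.0911 for Plin1 and -0.0900 to 0.13 for Cidec. Of 33 other named genes short of the threshold, 6 crossed it with some alternative: Acsl4, Agpat4, Csf1r, Fabp7, Npc1 and Nrip1. The cause was not tested. Deviations from the group means correlated weakly between samples with the same replicate number (r = 0.084, 0.19 and 0.025). Between samples with different numbers r ran from -0.14 to 0.064. Not every sample correlated best with its own number, so the numbers were not taken as pairs, but a pairing was not excluded. A replicate block gave 230 features, 1 lipid gene and a limma adjusted p of 0.0225 for Fabp4. Averaging features of a gene changed nothing, since each gene had 1 feature.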
